A study of Mus musculus with 40 samples.

Results

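The callus of skeletally immature mice 14 days post-resection (dpr) was compared with the callus 5 days post-resection, to describe which transcripts change while the repair tissue matures. All mice were wild type, and the study used female C57BL/6 animals, in which a piece of rib was removed. The immature mice were 7 weeks old and the mature mice, used here only for comparison, were over 10 months old. Of the 40 samples in the series, 39 had a column of counts, and 8 of them are compared here, 4 libraries at 14dpr (replicates 1 to 4) and 4 at 5dpr (replicates 2, 3, 4 and 5). The members of the comparison are the 21204 genes of the table that the authors filtered out of 48733 annotated genes. Both groups had undergone the same resection and received no other treatment, and the tissue was a composite of bone and intercostal muscle, so that muscle, marrow, vessels and blood contribute RNA beside the callus. The labels do not say whether the replicates came from separate animals, and p-values then measure the spread between these libraries. Values per library are CPM, which are counts scaled to library size with TMM factors, and a gene is called changed where its adjusted p is under 0.05 in edgeR's quasi-likelihood test.

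Rib defects heal largely through cartilage. Cells of the periosteum form a soft callus of cartilage, its chondrocytes enlarge and secrete type X collagen, blood vessels enter, osteoclasts resorb the calcified cartilage, and osteoblasts lay down bone, in which some of them remain as osteocytes. The intercostal muscle cut at surgery regenerates in parallel. Its satellite cells divide, switch on the myogenic transcription factors, fuse into new fibres, and for a while express embryonic and neonatal forms of the contractile proteins and of the acetylcholine receptor.

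The 8 libraries held between 6057756 and 21537070 counts, and the totals did not separate the days (exact two-sided permutation test, p = 0.686, where the smallest possible p is 0.0286). Immature 5dpr replicate 2 had the smallest total and stood apart from the other 7 libraries. In it 0.29% of the reads fell on genes outside the filtered table, against 0.046% to 0.051% in the other 7, and 50 genes of the table were above 2 CPM in it and over 5 times as high as in any other library, of which 21 are annotated as pseudogenes. Counts and calls that depend on this library are given with and without it. Markers of the labelled tissue were present on both days, with a mean log2 CPM over 20 adult skeletal muscle genes of 10.11 to 10.51 at 5dpr and 9.28 to 10.02 at 14dpr, and over 19 osteoblast and bone matrix genes of 5.45 to 6.26 at 5dpr and 6.61 to 7.45 at 14dpr. The lower muscle level at 14dpr and the higher bone level did not overlap between the days. In bulk tissue, fewer cells of a type and less RNA per cell cannot be told apart.

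Between 5 and 14dpr 674 genes changed, which is 3.18% of the genes tested. Of these, 366 (1.73% of the genes tested) were higher and 308 (1.45%) were lower at 14dpr, and 438 had an absolute log2 fold change above 1. The libraries of the days did not overlap for 617 of the 674 genes, against 15.1% of all genes tested. The calls used the same libraries, so this is not separate evidence for them. Genes of newly forming muscle fibres had the lowest median of the gene lists described. In contrast, some genes of cartilage matrix, hypertrophic cartilage, bone matrix, osteocytes, osteoclasts, antigen presentation and B cells were higher. The median log2 fold change over all genes tested was -0.02. Without immature 5dpr replicate 2, 341 genes were called (186 higher and 155 lower), without 14dpr replicate 2 there were 374 (230 and 144) and without 14dpr replicate 4 there were 382 (214 and 168). The count of higher genes was 228 without 5dpr replicate 4, and that of lower genes was 204 without 14dpr replicate 1.

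**Figure D1:**
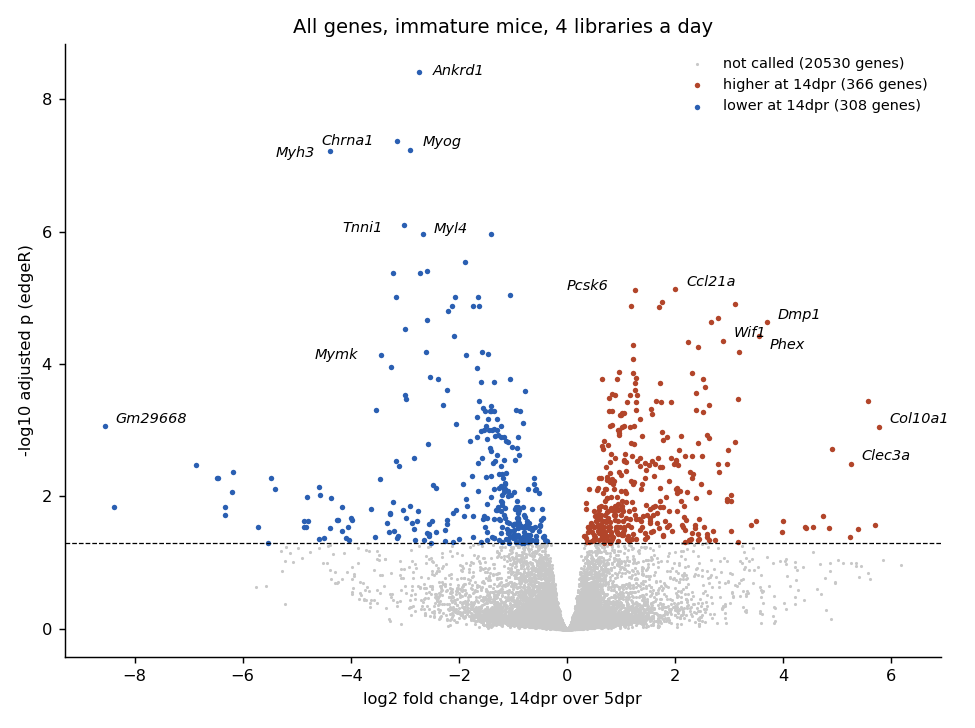
Log2 fold change of each of the 21204 genes tested (x axis, 14dpr over 5dpr in immature mice) against the -log10 adjusted p of edgeR's test (y axis), with the dashed line at an adjusted p of 0.05. Red points are the 366 genes higher and blue points the 308 genes lower at 14dpr. The muscle genes Ankrd1, Chrna1, Myog and Myh3 stand at the top on the lower side, and Col10a1 lies at the right edge.

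Most genes of regenerating muscle fell. Of the 14 genes on this list, 12 were lower at 14dpr and 0 were higher, with a median log2 fold change of -2.78. Myog, the transcription factor that commits myoblasts to differentiation (chromosome 1 of GRCm38, 134289989 to 134292548), was at 108, 126, 146 and 72.7 CPM at 5dpr and 19, 13, 16.4 and 12.5 CPM at 14dpr. Every 5dpr library was above every 14dpr library, with a log2 fold change of -2.90 ± 0.29 (SE, adjusted p = 5.8e-08). The embryonic myosin heavy chain Myh3 (chromosome 11, 67078300 to 67102291) was at 722, 802, 903 and 281 CPM at 5dpr and 34.7, 20.4, 49.9 and 24.3 CPM at 14dpr. It had the largest decrease on the list, a log2 fold change of -4.39 ± 0.44 (SE, adjusted p = 6.12e-08), and 5dpr replicate 5 was the lowest of its day. The neonatal myosin heavy chain Myh8 was at 803, 839, 1036 and 275 CPM at 5dpr and 96.4, 61.2, 87.1 and 65.4 CPM at 14dpr, a log2 fold change of -3.25 ± 0.51 (SE, adjusted p = 0.000112).

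Receptor and fusion genes of new fibres also fell. Chrna1, the alpha subunit of the muscle acetylcholine receptor, was at 69.2, 72.9, 77.1 and 39 CPM at 5dpr and 10.8, 5.48, 7.81 and 5.2 CPM at 14dpr, with no overlap and a log2 fold change of -3.14 ± 0.30 (SE, adjusted p = 4.28e-08). Chrng, the gamma subunit that the receptor holds before and during reinnervation, was at 12.5, 15.7, 15.1 and 7.29 CPM at 5dpr and 2.31, 1.01, 0.434 and 0.637 CPM at 14dpr, a log2 fold change of -3.53 ± 0.62 (SE, adjusted p = 0.000499). Mymk and Mymx, which encode the membrane proteins that fuse myoblasts, fell by 3.44 (adjusted p = 7.41e-05) and 3.17 (adjusted p = 0.00289) as log2 fold changes. The determination factors Myod1 and Myf5 fell by 2.13 (adjusted p = 1.35e-05) and 2.56 (adjusted p = 0.00159). Pax7, the marker of satellite cells, was at 9.2, 5.76, 6.53 and 3.47 CPM at 5dpr and 2.19, 1.22, 1.52 and 1.59 CPM at 14dpr, which did not overlap and missed the threshold (log2 fold change -1.93 ± 0.56 SE, adjusted p = 0.0504). Pax7 was called lower in 5 of the 17 alternative settings. Cdh15, the cadherin of satellite cells and myoblasts, had a log2 fold change of -0.71 ± 0.27 (SE, adjusted p = 0.171), with overlapping libraries. The 12 calls stood at 11 to 13 when single libraries were left out, at 12 without 5dpr replicate 2, and at 12 with the adult muscle level as a covariate, although Megf10 (log2 fold change -1.01 ± 0.27 SE, adjusted p = 0.0271) was lost in 5 of those 8 fits.

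Promoters of the receptor genes are shown because these subunits are classical targets of the myogenic factors, which bind E-boxes. In RefSeq windows from 250 bases before to 50 bases after the transcription start (GRCm38.p6), the E-box CAGCTG, which reads the same on both strands, was found in 3 of the 10 muscle regeneration genes with a window (Chrna1, Chrng and Igfn1), in 9 of 16 adult skeletal muscle genes (56.2%), and in 15.9% of the 13163 tested genes with a window. Chrna1 (chr2:73580289-73580588, minus strand) holds it at -92 and -44 from the start, and Chrng (chr1:87205561-87205860, plus strand) at -155 and -132. Capitals mark the E-box, and binding was not measured.
Chrna1: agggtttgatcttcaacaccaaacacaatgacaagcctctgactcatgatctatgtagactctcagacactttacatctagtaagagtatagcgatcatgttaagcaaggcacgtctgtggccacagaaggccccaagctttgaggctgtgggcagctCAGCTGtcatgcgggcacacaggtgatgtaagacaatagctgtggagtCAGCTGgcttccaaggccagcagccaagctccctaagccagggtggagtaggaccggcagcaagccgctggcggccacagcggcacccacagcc
Chrng: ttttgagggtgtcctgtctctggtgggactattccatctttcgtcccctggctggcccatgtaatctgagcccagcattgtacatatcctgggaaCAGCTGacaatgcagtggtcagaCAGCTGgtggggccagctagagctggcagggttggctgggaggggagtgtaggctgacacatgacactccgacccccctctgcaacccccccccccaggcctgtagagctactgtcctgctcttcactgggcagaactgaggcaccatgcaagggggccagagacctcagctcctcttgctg

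Further contractile and stress genes used by immature fibres fell, of which Myl4 and Igfn1 are on the muscle regeneration list and counted in its 12 calls. Ankrd1, a stress-responsive protein of the sarcomere (chromosome 19, 36111961 to 36120099), had the smallest adjusted p of all genes and was at 70.4, 59, 51.8 and 45.7 CPM at 5dpr and 8.41, 7.6, 10.1 and 7.65 CPM at 14dpr, a log2 fold change of -2.74 ± 0.24 (SE, adjusted p = 3.87e-09). The slow troponin Tnni1, the cardiac and embryonic troponin Tnnt2 and the embryonic light chain Myl4 fell by 3.01 (adjusted p = 7.94e-07), 3.17 (adjusted p = 9.64e-06) and 2.66 (adjusted p = 1.1e-06). Nes, which encodes the intermediate filament nestin of regenerating fibres and progenitors, fell by 1.89 (adjusted p = 2.88e-06), and Ncam1, a surface protein of new and denervated fibres that also marks Schwann cells, fell by 0.92 (adjusted p = 0.00185). Igfn1, a sarcomeric immunoglobulin-domain protein, fell by 1.76 (adjusted p = 0.00493). The long noncoding RNA Gm28653 was at 34.9, 31.3, 42.4 and 17.6 CPM at 5dpr and 3.9, 3.04, 4.01 and 2.55 CPM at 14dpr, a log2 fold change of -3.22 ± 0.40 (SE, adjusted p = 4.23e-06), and its locus holds the genes of the muscle microRNAs Mir206 and Mir133b on the same strand, so that its reads may include their precursors. Gatm, the first enzyme of creatine synthesis, was at 41.1, 44.4, 48.6 and 35.9 CPM at 5dpr and 15.7, 15.9, 16.7 and 15.7 CPM at 14dpr, a log2 fold change of -1.41 ± 0.16 (SE, adjusted p = 1.1e-06), with both days tight.

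Adult muscle genes gave smaller values. Of 20 adult skeletal muscle genes 0 were higher and 1 was lower, and 19 had a negative log2 fold change, with a median of -0.52. The called gene was Neb, the giant thin-filament protein nebulin, at 2602, 1849, 2553 and 1804 CPM at 5dpr and 943, 692, 1305 and 1023 CPM at 14dpr, a log2 fold change of -1.15 ± 0.29 (SE, adjusted p = 0.0212). It was lost without 14dpr replicate 1, 2 or 4 or 5dpr replicate 2 or 4. Acta1, the skeletal muscle actin, had a log2 fold change of -0.61 ± 0.30 (SE, adjusted p = 0.356). The level of the 20 adult genes was well under baseline on both days (mean log2 CPM 11.84 at baseline, 10.32 at 5dpr and 9.75 at 14dpr), whereas the muscle regeneration genes stood at 2.24 at baseline, 5.39 at 5dpr and 2.87 at 14dpr. Energy genes had values on the same side, with a median of -0.47 over 20 glycolytic genes (2 lower, Hk2 with -0.75 and Tpi1 with -0.70), -0.23 over 20 oxidative phosphorylation genes (0 called) and -0.58 over 13 mitochondrially encoded genes (0 called). Hk2 and Tpi1 were lost without 5dpr replicate 2 and without each 14dpr library, and with the adult muscle level as a covariate 0 glycolytic genes were called. With only the 8 libraries compared in the fit, 12 glycolytic, 4 oxidative phosphorylation, 8 mitochondrially encoded and 6 adult muscle genes were called lower. The part of the muscle share of the tissue in the other values was not tested.

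**Figure D2:**
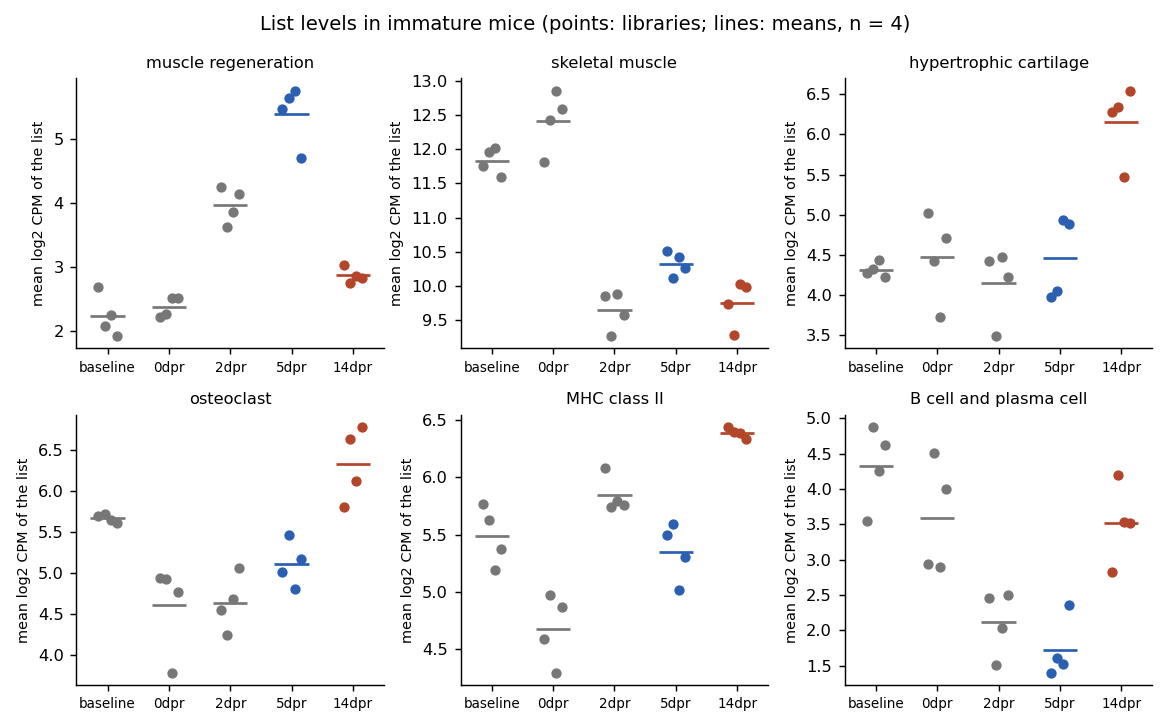
Mean log2 CPM of 6 gene lists (y axis) in each immature library at baseline, 0, 2, 5 and 14dpr (x axis), with lines at the mean of 4 libraries. The muscle regeneration list peaked at 5dpr with 4.70 to 5.75 and stood at 2.74 to 3.04 at 14dpr, while the hypertrophic cartilage, osteoclast and MHC class II lists were higher in every 14dpr library than in every 5dpr library.

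A part of the hypertrophic cartilage genes rose. Of 10 hypertrophic cartilage genes 5 were higher and 0 were lower at 14dpr, with a median log2 fold change of 1.77. Col10a1, the collagen of hypertrophic chondrocytes (chromosome 10, 34389981 to 34397085), was at 1.11, 0.501, 8.68 and 6.42 CPM at 5dpr and 433, 226, 88.4 and 270.3 CPM at 14dpr. The days were far apart, with a log2 fold change of 5.77 ± 1.07 (SE, adjusted p = 0.000891), the largest on the list. Mmp13, the collagenase that opens hypertrophic cartilage and bone matrix (chromosome 9, 7272514 to 7283331), was at 113, 156, 108 and 145 CPM at 5dpr and 394, 967, 407 and 849 CPM at 14dpr, a log2 fold change of 2.32 ± 0.37 (SE, adjusted p = 0.000137). Alpl, the phosphatase that allows mineral to form, was at 25.4, 46.6, 60.2 and 84.4 CPM at 5dpr and 138, 232, 118 and 302 CPM at 14dpr, a log2 fold change of 1.86 ± 0.36 (SE, adjusted p = 0.00128). Ihh, the hedgehog ligand of prehypertrophic chondrocytes, was at 0, 0, 0.84 and 0.434 CPM at 5dpr and 4.87, 2.64, 0.542 and 3.61 CPM at 14dpr, which overlapped and missed the threshold (log2 fold change 2.90 ± 0.93 SE, adjusted p = 0.0838). The other called members were Ibsp and Pth1r, which like Alpl are also on the osteoblast list, and the count fell to 3 without 14dpr replicate 4, 5dpr replicate 2 or 5dpr replicate 3.

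Genes of the general cartilage matrix rose in part. Their median log2 fold change was 1.80 over 19 genes, of which 16 had a positive value, 3 were higher and 0 were lower. Of all genes tested 1.73% were higher. The libraries of the days did not overlap for 13 of the 19, against 15.1% of all genes tested. The mean log2 CPM of the list was 2.99 to 4.28 at 5dpr and 4.70 to 6.08 at 14dpr. The called genes were Comp, a pentameric glycoprotein of cartilage and tendon (log2 fold change 2.11 ± 0.50 SE, adjusted p = 0.0118), Col11a2, a collagen XI chain (log2 fold change 1.88 ± 0.47 SE, adjusted p = 0.0167), and Chad, a leucine-rich repeat protein of cartilage (log2 fold change 2.71 ± 0.74 SE, adjusted p = 0.0332). Col2a1, the main collagen of cartilage, was at 15.9, 17.7, 129 and 223 CPM at 5dpr and 1972, 226, 1015 and 594 CPM at 14dpr. All 14dpr libraries were above all 5dpr libraries, but the spread within each day was wide and the test did not call it (log2 fold change 3.29 ± 1.14 SE, adjusted p = 0.116). Acan, the large proteoglycan, and Sox9, the transcription factor of chondrocytes, had a log2 fold change of 0.49 ± 0.61 (SE, adjusted p = 0.842) and a log2 fold change of -0.39 ± 0.46 (SE, adjusted p = 0.834), with overlapping libraries. Cnmd and Snorc, a pair of membrane proteins of cartilage, differed by 3.43 (adjusted p = 0.0866) and 4.06 (adjusted p = 0.0888), and 14dpr replicate 1 was the highest library for both. Clec3a, a cartilage lectin that was not on the list, was at 0.159, 0.125, 1.12 and 0.174 CPM at 5dpr and 44.5, 4.16, 17.2 and 10.3 CPM at 14dpr, a log2 fold change of 5.26 ± 1.09 (SE, adjusted p = 0.0032). Without 5dpr replicate 2 the count of called matrix genes was 0, and it was 1 without 14dpr replicate 1, 14dpr replicate 4 or 5dpr replicate 4, whereas Clec3a and Col10a1 kept their calls in the 8 fits that left out a library.

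A part of the osteoblast and bone matrix genes rose. Of 19 osteoblast and bone matrix genes 6 were higher and 0 were lower, and 17 had a positive value, with a median of 1.32. Besides Alpl, they included Smpd3, a sphingomyelinase needed for mineralization (log2 fold change 2.06 ± 0.43 SE, adjusted p = 0.00337), Ifitm5, a membrane protein of mineralizing osteoblasts (log2 fold change 2.03 ± 0.47 SE, adjusted p = 0.00885), Ibsp, the sialoprotein that nucleates mineral (log2 fold change 1.67 ± 0.42 SE, adjusted p = 0.0178), and Pth1r, the receptor of parathyroid hormone (log2 fold change 1.02 ± 0.28 SE, adjusted p = 0.0387). Other osteoblast genes missed the threshold. Runx2, the transcription factor that starts the lineage, was at 16.5, 29.2, 23 and 44.7 CPM at 5dpr and 34.1, 50.5, 28.7 and 46.6 CPM at 14dpr, a log2 fold change of 0.49 ± 0.36 (SE, adjusted p = 0.644), and its libraries overlapped. Sp7, the transcription factor that acts after Runx2, had a log2 fold change of 1.47 ± 0.48 (SE, adjusted p = 0.0914) without overlap. Col1a1, the main collagen of bone, had a log2 fold change of 0.63 ± 0.39 (SE, adjusted p = 0.534), and osteocalcin, counted as Bglap and near identical to its neighbour Bglap2, had a log2 fold change of 1.65 ± 0.65 (SE, adjusted p = 0.196). The count of called genes was 2 without 5dpr replicate 2 and without 14dpr replicate 4, and 3 without 5dpr replicate 3.

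Several osteocyte genes rose. Of 12 osteocyte genes 4 were higher and 1 was lower, and the median was 1.39, or 0.58 when the 1 gene with at most 3 reads in each library of a day was set to its bound. Dmp1, a phosphoprotein of the osteocyte matrix (chromosome 5, 104202613 to 104214102), was at 8.88, 9.14, 13.2 and 21.4 CPM at 5dpr and 70.4, 235, 105 and 282 CPM at 14dpr, a log2 fold change of 3.70 ± 0.52 (SE, adjusted p = 2.33e-05). Phex, the endopeptidase that restrains FGF23 (chromosome X, 157162075 to 157415312), was at 3.65, 5.26, 3.64 and 9.9 CPM at 5dpr and 35.1, 98.7, 45.1 and 86.1 CPM at 14dpr, a log2 fold change of 3.55 ± 0.52 (SE, adjusted p = 3.81e-05). Neither overlapped, and for both genes 14dpr replicates 2 and 4 were the highest. Mepe, a further matrix phosphoglycoprotein, had a log2 fold change of 2.96 ± 0.70 (SE, adjusted p = 0.0107), and was lost without 5dpr replicate 4 (adjusted p = 0.0579). The remaining higher gene was Dkk1, which is also on the Wnt list, counted in its calls and given there. Sost, the Wnt inhibitor of mature osteocytes, was at 2.22, 1.13, 0.56 and 1.91 CPM at 5dpr and 4.14, 7.81, 3.47 and 8.18 CPM at 14dpr, which did not overlap and missed the threshold (log2 fold change 2.07 ± 0.69 SE, adjusted p = 0.0995). Enpp1, which makes the mineral inhibitor pyrophosphate, was the lower gene, at 260.2, 261, 297 and 190.0 CPM at 5dpr and 146, 134, 156 and 129 CPM at 14dpr, a log2 fold change of -0.84 ± 0.24 (SE, adjusted p = 0.0498), and lost its call in 7 of the 8 fits that left out a library, all but that without 5dpr replicate 5.

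Promoters of Dmp1 and Mmp13 are shown as the members of the osteocyte and hypertrophic lists with the smallest adjusted p. Capitals mark the 6-base core TGTGGT of the RUNX motif, which reads ACCACA on the other strand and was searched on both. It was found in 13.4% of the 13163 windows, in 4 of 10 osteocyte genes with a window (Dmp1, Mepe, Enpp1 and Dkk1), in 4 of 10 osteoblast genes, in 2 of 9 hypertrophic cartilage genes and in 1 of 8 osteoclast genes. Dmp1 (chr5:104202367-104202666, plus strand) holds it at -164 and Mmp13 (chr9:7272264-7272563, plus strand) at -118 from the RefSeq start. A match is a stretch of letters, and binding was not measured.
Dmp1: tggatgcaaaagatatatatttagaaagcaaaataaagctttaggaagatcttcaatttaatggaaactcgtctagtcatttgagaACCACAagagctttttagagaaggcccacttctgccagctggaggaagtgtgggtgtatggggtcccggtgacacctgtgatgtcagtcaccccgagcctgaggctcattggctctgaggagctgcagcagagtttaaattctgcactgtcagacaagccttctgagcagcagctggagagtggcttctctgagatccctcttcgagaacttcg
Mmp13: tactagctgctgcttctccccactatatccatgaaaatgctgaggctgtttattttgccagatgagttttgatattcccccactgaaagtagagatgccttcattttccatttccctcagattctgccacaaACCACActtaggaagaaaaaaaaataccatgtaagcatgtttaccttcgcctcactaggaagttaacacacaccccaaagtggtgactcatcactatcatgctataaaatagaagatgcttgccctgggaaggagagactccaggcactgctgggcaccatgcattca

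**Figure D3:**
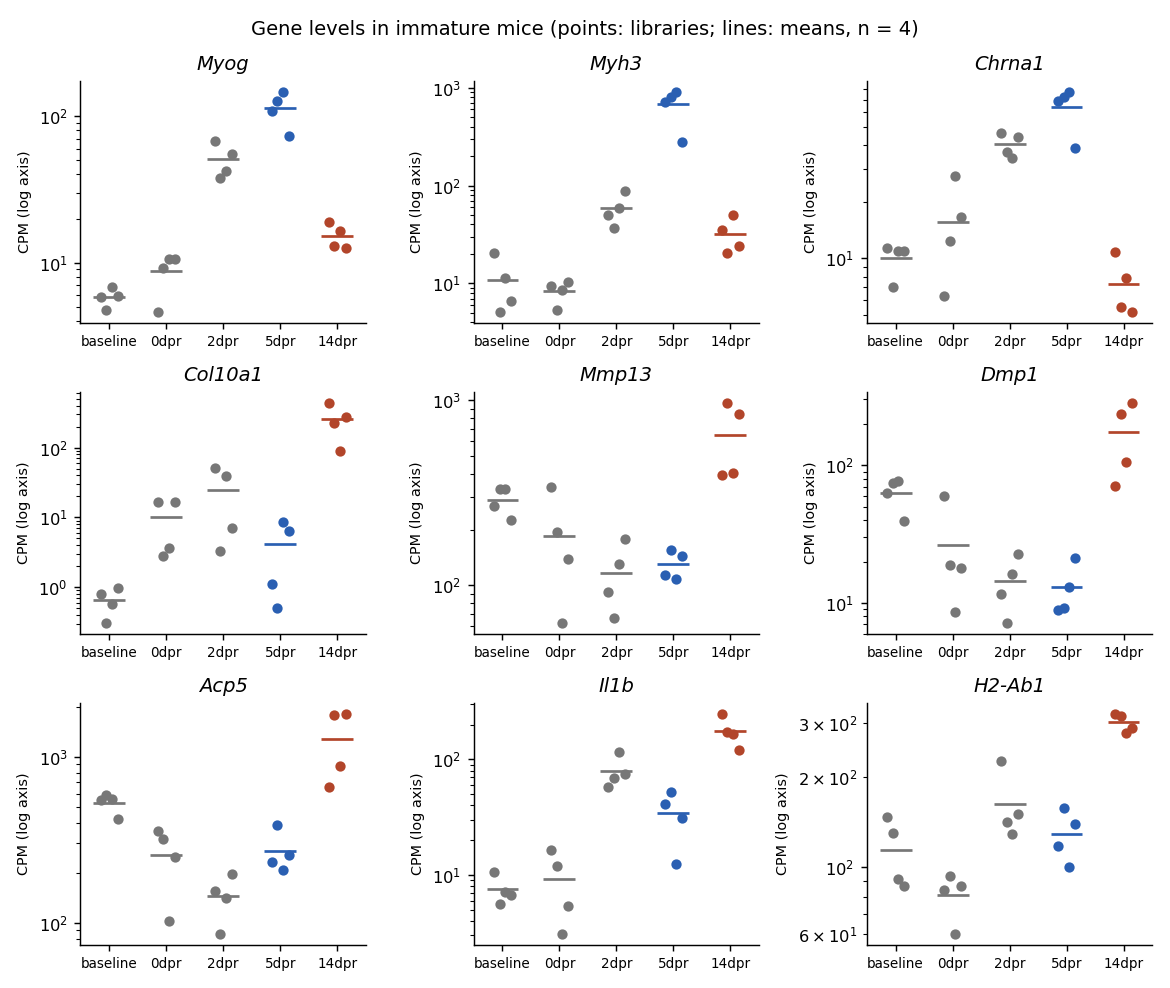
CPM (y axis, log scale) of 9 genes in each immature library at baseline, 0, 2, 5 and 14dpr (x axis), with lines at the mean of 4 libraries. Myog, Myh3 and Chrna1 were highest at 5dpr, while Mmp13, Dmp1 and Acp5 had lower means at 2 and 5dpr than at baseline and were highest at 14dpr. The mean of Il1b was 79.2 CPM at 2dpr, 34.3 at 5dpr and 176 at 14dpr, against 7.51 at baseline.

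A part of the osteoclast genes rose. Of 16 genes 7 were higher and 0 were lower, all 16 had a positive log2 fold change, and the median was 1.18. Acp5, the tartrate-resistant phosphatase (chromosome 9, 22126727 to 22135711), was at 232, 387, 209 and 255 CPM at 5dpr and 658, 1777, 875 and 1803 CPM at 14dpr, a log2 fold change of 2.24 ± 0.33 (SE, adjusted p = 4.61e-05). Every 14dpr library was above every 5dpr library, again with replicates 2 and 4 as the highest. The proteases Ctsk, which degrades bone collagen, and Mmp9, a gelatinase of osteoclasts and neutrophils, had a log2 fold change of 1.79 ± 0.35 (SE, adjusted p = 0.00141) and a log2 fold change of 1.73 ± 0.36 (SE, adjusted p = 0.00363). The fusion proteins Dcstamp and Ocstamp had a log2 fold change of 2.31 ± 0.50 (SE, adjusted p = 0.0052) and a log2 fold change of 1.84 ± 0.43 (SE, adjusted p = 0.0101). Oscar, a costimulatory receptor, had a log2 fold change of 2.02 ± 0.42 (SE, adjusted p = 0.00295), and Siglec15, a lectin of differentiating osteoclasts, had a log2 fold change of 2.98 ± 0.59 (SE, adjusted p = 0.00201). Calcr, the calcitonin receptor, was at 1.59, 1.75, 1.35 and 2.43 CPM at 5dpr and 2.56, 4.36, 3.91 and 7.86 CPM at 14dpr, without overlap, and missed the threshold (log2 fold change 1.39 ± 0.50 SE, adjusted p = 0.136). Between 6 and 8 of the 16 genes were called when single libraries were left out, and Ocstamp was lost without 14dpr replicate 4 (adjusted p = 0.0966) and 5dpr replicate 2 (adjusted p = 0.0536).

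Of the 4 signalling pathways described, Wnt had the most calls. Of its 24 genes 5 were higher and 0 were lower, with a median of 0.68. Wif1, a secreted inhibitor that binds Wnt ligands (chromosome 10, 121033960 to 121100650), was at 5.87, 9.27, 5.88 and 9.03 CPM at 5dpr and 35, 74.3, 39.4 and 74.3 CPM at 14dpr, a log2 fold change of 2.89 ± 0.43 (SE, adjusted p = 4.48e-05). Dkk1, which blocks the Wnt coreceptors, was at 0.952, 0.751, 0.606 and 2 CPM at 5dpr and 5.48, 10.7, 6.29 and 7.43 CPM at 14dpr, a log2 fold change of 2.79 ± 0.58 (SE, adjusted p = 0.00323), and Sfrp4, a decoy receptor, had a log2 fold change of 1.29 ± 0.23 (SE, adjusted p = 0.000499). Among the receptors Fzd1 had a log2 fold change of 1.01 ± 0.22 (SE, adjusted p = 0.00482), with 35.1, 39.6, 41.8 and 42 CPM at 5dpr and 76, 81.5, 80.8 and 81.4 CPM at 14dpr. The coreceptor Lrp5 had a log2 fold change of 0.71 ± 0.19 (SE, adjusted p = 0.0349), and was lost without 14dpr replicate 1, 2 or 4 or 5dpr replicate 2 or 3. The remaining secreted inhibitors on the list were not called. The 24-gene count stood at 4 or 5 in the fits that left out a library, and was 10 with only the 8 libraries compared in the fit.

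The other pathways had 1 or 2 calls each. In the hedgehog pathway 1 of 14 genes was higher and 0 lower, with a median of 0.60 (0.48 with a gene at its bound). The called gene was Ptch1, the receptor and target of hedgehog signals, at 15.7, 16.2, 24.2 and 23.7 CPM at 5dpr and 33.6, 36, 36.5 and 37.7 CPM at 14dpr, a log2 fold change of 0.84 ± 0.21 (SE, adjusted p = 0.0159), which was lost without 5dpr replicate 2 (adjusted p = 0.0881) and 5dpr replicate 3 (adjusted p = 0.0661), while 2 genes were called without 5dpr replicate 5. Gli1, the other common target, was at 1.59, 2.38, 5.18 and 4.86 CPM at 5dpr and 7.55, 8.72, 8.03 and 8.39 CPM at 14dpr, without overlap, and missed the threshold (log2 fold change 1.18 ± 0.45 SE, adjusted p = 0.168). In the BMP pathway 2 of 22 genes were higher, the ligand Bmp7 (log2 fold change 2.29 ± 0.49 SE, adjusted p = 0.00431), at 0.476, 0.376, 0.606 and 1.13 CPM at 5dpr and 1.58, 3.65, 2.71 and 5.2 CPM at 14dpr, and the target Id2 (log2 fold change 0.67 ± 0.13 SE, adjusted p = 0.00191), and without 14dpr replicate 1 the count was 4. In the TGF-beta pathway 1 of 17 was higher, the matricellular target Ccn2 (log2 fold change 1.13 ± 0.32 SE, adjusted p = 0.0394), and 1 was lower, the activin subunit Inhba (log2 fold change -1.38 ± 0.39 SE, adjusted p = 0.0404). Ccn2 was lost in all 8 fits that left out a library, and Inhba in all but that without 5dpr replicate 4. These counts depended on the fit. With DESeq2 4 hedgehog and 4 BMP genes were higher, with the erythroid level as a covariate 3 and 3, and with only the 8 libraries compared 6 and 7, while the TGF-beta list then had 4 higher and 3 lower.

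Few genes of collagens and their enzymes changed, and a part of the stromal progenitor genes changed in both directions. Of 19 fibrillar collagens and their enzymes 0 were higher and 1 was lower, with a median of -0.06. The lower gene was Loxl3, a lysyl oxidase that cross-links collagen (log2 fold change -0.74 ± 0.20 SE, adjusted p = 0.0259), which was lost without 14dpr replicate 2 or 4 or 5dpr replicate 3 or 4. Among 16 periosteal and stromal progenitor genes 3 were higher and 2 were lower, with a median of 0.33. Of all genes tested 3.18% were called. Acta2, the smooth muscle actin of contractile progenitors and vessel walls, was at 522, 468, 529 and 342 CPM at 5dpr and 150.3, 122, 192 and 123 CPM at 14dpr, a log2 fold change of -1.66 ± 0.26 (SE, adjusted p = 0.000115), and Tnc, the early-repair glycoprotein tenascin C, had a log2 fold change of -1.12 ± 0.30 (SE, adjusted p = 0.0315). Lepr, the leptin receptor of marrow stroma, was at 22, 16.9, 21.8 and 23.8 CPM at 5dpr and 49.5, 90.1, 51.3 and 93.5 CPM at 14dpr, a log2 fold change of 1.75 ± 0.30 (SE, adjusted p = 0.000369), and Cxcl12, the chemokine that these cells make, had a log2 fold change of 0.80 ± 0.21 (SE, adjusted p = 0.0245). The third higher gene was Ctsk, given with the osteoclasts. Postn, the periosteal matrix protein periostin, was at 7247, 7568, 8592 and 5021 CPM at 5dpr and 5971, 3467, 5175 and 3445 CPM at 14dpr, which overlapped (log2 fold change -0.65 ± 0.35 SE, adjusted p = 0.422). Tnc was lost in 6 of the 8 fits, all but those without 5dpr replicate 2 and 5, and Cxcl12 in 5, those without 14dpr replicate 2 or 4 or 5dpr replicate 2, 3 or 4.

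Matrix-degrading and elastic genes rose in part. Of 20 metalloproteinases and inhibitors 5 were higher and 0 were lower, among them Mmp13 and Mmp9 above, the gelatinase Mmp2 (log2 fold change 0.77 ± 0.17 SE, adjusted p = 0.00539) and the stromelysin Mmp3 (log2 fold change 1.54 ± 0.40 SE, adjusted p = 0.0255). The fifth, the stromelysin Mmp10, had at most 3 reads in each 5dpr library, and its 14dpr level was higher by at least 3.82-fold (edgeR adjusted p = 0.0332). Of the 20 genes 3 were called without 14dpr replicate 3 or without 5dpr replicate 2, 4 or 5. Of 14 elastic fibre genes 3 were higher, Fbln5, which assembles elastin (log2 fold change 0.68 ± 0.13 SE, adjusted p = 0.00147), Ltbp4, which supports elastic fibres and holds latent TGF-beta (log2 fold change 0.98 ± 0.26 SE, adjusted p = 0.0288), and Fbln1 (log2 fold change 0.79 ± 0.23 SE, adjusted p = 0.0496), but Fbln5 alone was called without 14dpr replicate 3 or 4 or 5dpr replicate 2 or 3. The median over the 14 genes was 0.03.

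Several imprinted growth genes fell. Of 20 genes of the IGF axis and imprinted growth genes 4 were lower and 1 was higher. H19, a noncoding RNA abundant in fetal and regenerating muscle, was at 2728, 2985, 3109.6 and 2120.2 CPM at 5dpr and 1698, 949, 1383 and 949.5 CPM at 14dpr, a log2 fold change of -1.14 ± 0.22 (SE, adjusted p = 0.00145). Igf2, the fetal growth factor next to it, was at 257, 284, 297 and 156 CPM at 5dpr and 92.6, 95, 121 and 123 CPM at 14dpr, a log2 fold change of -1.20 ± 0.28 (SE, adjusted p = 0.00952). Mest and the cell cycle inhibitor Cdkn1c had a log2 fold change of -1.41 ± 0.28 (SE, adjusted p = 0.00207) and a log2 fold change of -1.07 ± 0.25 (SE, adjusted p = 0.0094). The adult muscle level (mean log2 CPM 10.32 at 5dpr and 9.75 at 14dpr) and the muscle regeneration level (5.39 and 2.87) also fell. With the adult muscle level as a covariate 3 genes of the list were called lower. The muscle regeneration level was not used as a covariate, and the part of muscle in these values was not tested. Igfbp4, a secreted IGF-binding protein, was the higher gene, a log2 fold change of 0.90 ± 0.15 (SE, adjusted p = 0.00029). Among 24 cell cycle genes 0 were higher and 1 was lower, the mitotic kinase Plk1 (log2 fold change -1.48 ± 0.35 SE, adjusted p = 0.0131), which was lost without 5dpr replicate 2, and 23 of the 24 had negative values with a median of -0.55. With only the 8 libraries compared in the fit 14 cell cycle genes were called lower, with the erythroid level as a covariate 4, and with DESeq2 2.

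Some inflammatory cytokine genes rose. Of 24 inflammatory cytokines and chemokines 6 were higher and 1 was lower, with a median of 0.62. Il1b, the inflammatory cytokine interleukin-1 beta (chromosome 2, 129364570 to 129371139), was at 41.4, 52.1, 12.5 and 31 CPM at 5dpr and 246, 172, 167 and 121 CPM at 14dpr, a log2 fold change of 2.38 ± 0.42 (SE, adjusted p = 0.000502). Cxcl2, a chemokine that attracts neutrophils, was at 12.1, 15.3, 5.04 and 7.81 CPM at 5dpr and 110.3, 78, 92.3 and 70.6 CPM at 14dpr, a log2 fold change of 3.17 ± 0.54 (SE, adjusted p = 0.000333). Neither overlapped, and 5dpr replicate 4 was the lowest library for both. Cxcl3, of the same family, and Ccl3 and Ccl4, which attract monocytes and lymphocytes, had a log2 fold change of 2.38 ± 0.38 (SE, adjusted p = 0.000273), a log2 fold change of 1.93 ± 0.39 (SE, adjusted p = 0.00265) and a log2 fold change of 2.11 ± 0.40 (SE, adjusted p = 0.0012), and the sixth gene was Cxcl12, given with the stroma. The lower gene was the monocyte attractant Ccl12 (log2 fold change -1.53 ± 0.39 SE, adjusted p = 0.0199), lost without 14dpr replicate 1 or 4, and the related Ccl2 had a log2 fold change of -0.86 ± 0.29 (SE, adjusted p = 0.11).

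Acod1, Hcar2 and Slc7a11, which are on none of the lists, rose. Acod1, which makes itaconate, was at 14.1, 18.5, 5.78 and 10.5 CPM at 5dpr and 142, 92.1, 114 and 87.1 CPM at 14dpr, a log2 fold change of 3.19 ± 0.48 (SE, adjusted p = 6.67e-05). Hcar2, a receptor for niacin and ketone bodies, was at 6.03, 3.63, 2.66 and 3.82 CPM at 5dpr and 41.3, 33.3, 36.7 and 24.3 CPM at 14dpr, a log2 fold change of 3.11 ± 0.42 (SE, adjusted p = 1.22e-05), and Slc7a11, the cystine transporter, had a log2 fold change of 2.67 ± 0.38 (SE, adjusted p = 2.33e-05). For these 3 genes the lowest 14dpr library was over 3 times the highest 5dpr library. Most macrophage, monocyte and neutrophil markers were not called. Of 20 macrophage and monocyte genes 1 was higher, the lipopolysaccharide receptor Cd14 (log2 fold change 1.03 ± 0.28 SE, adjusted p = 0.0352), and 1 was lower, the arginase Arg1 (log2 fold change -2.10 ± 0.61 SE, adjusted p = 0.0487), with a median of -0.14, and each lost its call in most fits that left out a library (Cd14 without 14dpr replicate 1, 2 or 3 or 5dpr replicate 4 or 5, and Arg1 in all 8). Of 18 neutrophil genes 0 were called, with a median of -0.54, and S100a8, a calcium-binding protein abundant in neutrophils, had a log2 fold change of -0.52 ± 0.51 (SE, adjusted p = 0.771) with overlapping libraries, while 1 gene was lower without 5dpr replicate 2 or 3. Of 16 interferon-induced genes all had a negative value, with a median of -0.90, and 1 was called, Ifit2 (log2 fold change -1.06 ± 0.30 SE, adjusted p = 0.0398). That call was lost without each library but 5dpr replicate 5, 3 of the 16 genes were called without 14dpr replicate 1, and Isg15 had a log2 fold change of -0.93 ± 0.39 (SE, adjusted p = 0.243).

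Complement genes rose in part, with 4 higher and 0 lower of 16 and a median of 0.12. The proteases C1s1 and C1ra, which start the classical pathway, had a log2 fold change of 0.96 ± 0.18 (SE, adjusted p = 0.00098) and a log2 fold change of 1.00 ± 0.18 (SE, adjusted p = 0.000584). Serping1, which inhibits these proteases, had a log2 fold change of 0.73 ± 0.15 (SE, adjusted p = 0.00364). The count was 4 in each of the 8 fits that left out a library.

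Genes of MHC class II mostly rose. Of 10 genes 7 were higher and 0 were lower, with a median of 1.20. H2-Ab1, a beta chain (chromosome 17, 34257689 to 34269419), was at 118, 157, 100 and 139 CPM at 5dpr and 322, 318, 278 and 290.1 CPM at 14dpr, a log2 fold change of 1.23 ± 0.27 (SE, adjusted p = 0.00601). The alpha chain H2-Aa, the beta chain H2-Eb1 and the invariant chain Cd74 had a log2 fold change of 1.19 ± 0.23 (SE, adjusted p = 0.00158), a log2 fold change of 1.24 ± 0.24 (SE, adjusted p = 0.00162) and a log2 fold change of 1.20 ± 0.24 (SE, adjusted p = 0.00246). The peptide loading genes H2-DMa and H2-DMb1 had a log2 fold change of 0.85 ± 0.19 (SE, adjusted p = 0.00638) and a log2 fold change of 0.74 ± 0.17 (SE, adjusted p = 0.0107), and H2-Ob, which is used by B cells, had a log2 fold change of 2.01 ± 0.41 (SE, adjusted p = 0.00278). Ciita, the transcriptional activator of these genes, was at 13.2, 15.7, 11.9 and 16.6 CPM at 5dpr and 28, 26.7, 29.2 and 21.5 CPM at 14dpr, without overlap, and missed the threshold (log2 fold change 0.88 ± 0.28 SE, adjusted p = 0.084). Leaving out single libraries called 6 or 7 of the 10 genes, with H2-DMb1 lost without 5dpr replicate 4 (adjusted p = 0.0749).

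A part of the B cell genes rose. Of 20 B cell and plasma cell genes 7 were higher and 0 were lower, all 20 had a positive value, and the median was 2.13. Ms4a1, which encodes CD20, was at 1.59, 1.38, 0.746 and 2.78 CPM at 5dpr and 4.14, 21, 8.9 and 10.4 CPM at 14dpr, a log2 fold change of 2.81 ± 0.60 (SE, adjusted p = 0.00422). Cd79b and Cd79a, the signalling chains of the B cell receptor, had a log2 fold change of 2.34 ± 0.50 (SE, adjusted p = 0.00452) and a log2 fold change of 2.44 ± 0.70 (SE, adjusted p = 0.0435). Igll1, the surrogate light chain of B cell precursors in the marrow, was at 0, 0, 0.187 and 0.0868 CPM at 5dpr and 2.68, 3.55, 3.15 and 3.72 CPM at 14dpr, a log2 fold change of 4.91 ± 0.97 (SE, adjusted p = 0.00192). Vpreb3, also of B cell precursors, had a log2 fold change of 3.40 ± 0.90 (SE, adjusted p = 0.0269), and Mzb1, of plasma cells, had a log2 fold change of 2.59 ± 0.72 (SE, adjusted p = 0.037). Ighm, the mu heavy chain, was at 33.8, 60.8, 33.6 and 67 CPM at 5dpr and 83.3, 176, 121 and 115 CPM at 14dpr and missed the threshold (log2 fold change 1.34 ± 0.42 SE, adjusted p = 0.0716). The mean log2 CPM of the list was 1.40 to 2.36 at 5dpr and 2.82 to 4.20 at 14dpr, against a mean of 4.32 at baseline, and 17 erythroid genes, whose precursors share the marrow, had 4.86 to 6.00 and 5.39 to 6.68 with 0 called. The count of 7 was 3 without 14dpr replicate 2, 5dpr replicate 3 or 5dpr replicate 4, and 4 without 14dpr replicate 3, 14dpr replicate 4 or 5dpr replicate 2. Of 20 T cell and cytotoxic lymphocyte genes 0 were called, with a median of 0.57. The part of the marrow share of the tissue in these values was not tested.

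**Figure D4:**
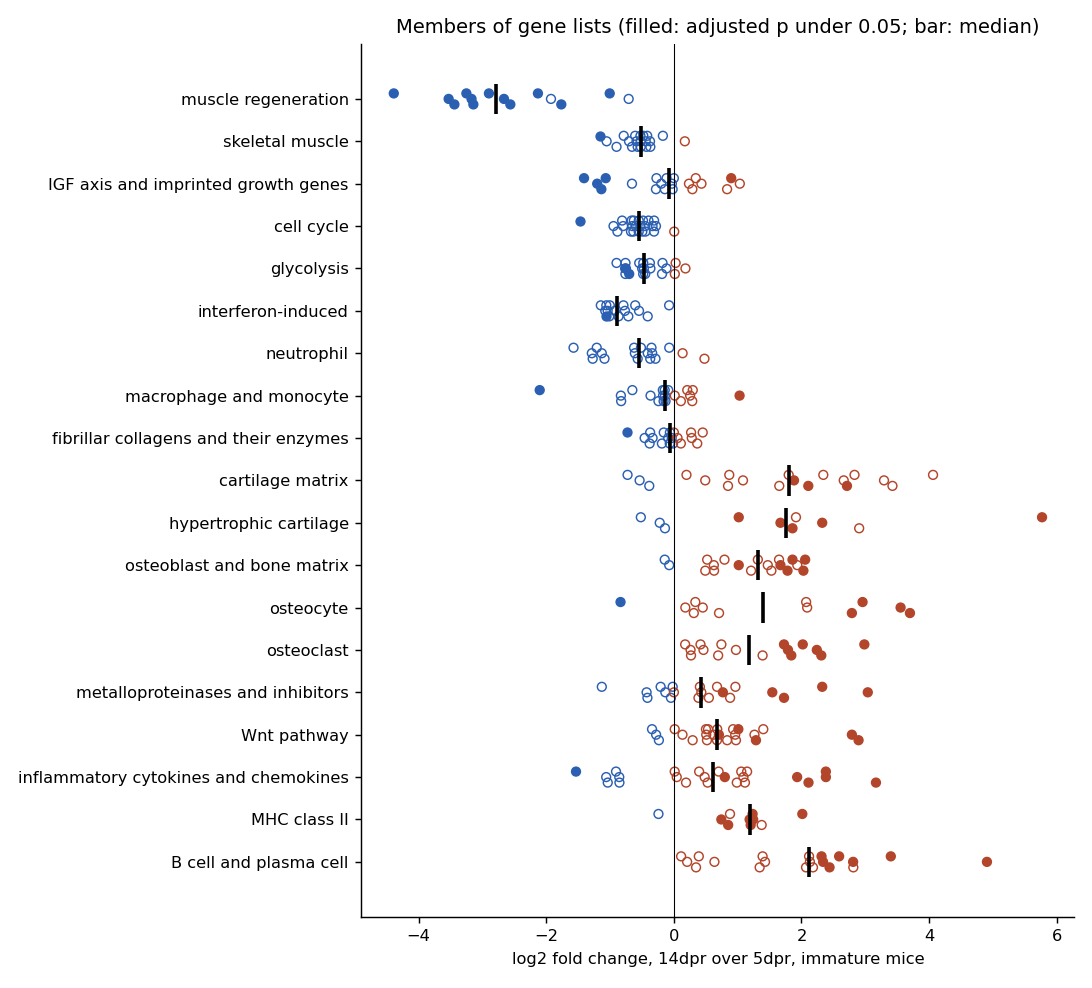
Log2 fold change between 14 and 5dpr (x axis) of each tested member of 19 gene lists (y axis), with filled points for genes with an adjusted p under 0.05, red above and blue under 0, and a bar at the median. The muscle regeneration list lies apart on the lower side with a median of -2.78, and the B cell list has the highest median, 2.13.

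Vessel, nerve, tendon and fat lists held few calls. Of 20 endothelial genes 2 were higher, Cldn5, a tight junction protein of endothelium (log2 fold change 1.06 ± 0.22 SE, adjusted p = 0.00278), and Flt4, the VEGF receptor of lymphatic vessels (log2 fold change 0.87 ± 0.22 SE, adjusted p = 0.0167), and 1 was called without 14dpr replicate 3 or 5dpr replicate 2. Of 15 Schwann cell genes 0 were higher and 1 was lower, Ncam1, which is given above among muscle genes. A positive value was found for 12 of the 15, with a median of 0.45. Of 12 tendon genes 1 was higher, Cilp2, a matrix protein of cartilage and tendon (log2 fold change 2.16 ± 0.52 SE, adjusted p = 0.0141), and 0 were called without 5dpr replicate 2 or 3. Of 16 immediate early genes 1 was higher, the phosphatase Dusp1, at 41.6, 66.5, 28.2 and 63.7 CPM at 5dpr and 190.3, 142, 178 and 151 CPM at 14dpr, a log2 fold change of 1.73 ± 0.28 (SE, adjusted p = 0.00019).

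In 8 lists edgeR called 0 genes when fitted over all 39 libraries. An unadjusted p under 0.05 was reached by 6 of 20 oxidative phosphorylation genes, 3 of 13 mitochondrially encoded genes, 3 of 18 neutrophil genes, 0 of 17 erythroid genes, 1 of 10 megakaryocyte genes, 7 of 20 T cell genes, 2 of 20 adipocyte genes and 3 of 20 ribosomal protein genes. DESeq2 called 1 neutrophil and 1 adipocyte gene lower and 1 megakaryocyte and 1 T cell gene higher, and 0 genes in the other 4 lists. With only the 8 libraries compared, edgeR called 8 mitochondrially encoded, 4 oxidative phosphorylation and 2 neutrophil genes lower and 6 T cell, 1 erythroid and 1 megakaryocyte genes higher. With the erythroid level as a covariate it called 4 neutrophil genes and 1 erythroid gene lower, and with the muscle level 1 neutrophil gene. The medians of the adipocyte, megakaryocyte and ribosomal protein lists were -0.42, -0.07 and 0.18.

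The same settings moved the counts of lists with calls. With the adult muscle level as a covariate, 1 cartilage matrix gene was called higher in place of 3, 3 hypertrophic cartilage genes in place of 5, 3 osteoblast genes in place of 6 and 4 B cell genes in place of 7, while the 7 osteoclast, 7 MHC class II and 4 osteocyte genes higher stood at 7, 7 and 4. With only the 8 libraries compared, 11 cartilage matrix genes were higher and 2 lower, 13 osteoblast, 12 B cell, 6 endothelial and 6 Schwann cell genes were higher, and 8 interferon-induced genes were lower.

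Some of the smallest adjusted p-values among higher genes belonged to genes of none of these lists. Ccl21a, a chemokine of lymphatic vessels with near-identical copies, between which the counting may have split reads, was at 24.6, 32.3, 22.9 and 24.6 CPM at 5dpr and 129, 83, 124 and 81.7 CPM at 14dpr, a log2 fold change of 2.00 ± 0.26 (SE, adjusted p = 7.44e-06). Pcsk6, a proprotein convertase that activates TGF-beta family ligands, was at 39.5, 48.7, 39.1 and 55.3 CPM at 5dpr and 108, 109, 96.6 and 125 CPM at 14dpr, a log2 fold change of 1.26 ± 0.16 (SE, adjusted p = 7.57e-06). Tsc22d3, a glucocorticoid-induced transcription regulator, was at 123, 109.8, 136 and 119 CPM at 5dpr and 408, 317, 403 and 519 CPM at 14dpr, a log2 fold change of 1.75 ± 0.23 (SE, adjusted p = 1.17e-05). None of these overlapped between the days, which was a condition for naming them. Cpxm2, a carboxypeptidase-like protein whose annotation overlaps that of Fgfr2 on the same strand, had a log2 fold change of 1.71 ± 0.23 (SE, adjusted p = 1.36e-05), Spns2, a sphingosine-1-phosphate transporter, had a log2 fold change of 1.18 ± 0.16 (SE, adjusted p = 1.35e-05), and Mucl2, a mucin-like gene, had a log2 fold change of 2.79 ± 0.39 (SE, adjusted p = 2.04e-05). These 6 genes kept their calls in the 8 fits that left out a library.

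A group of genes was high in 1 library. Of the 50 genes that were over 5 times as high in 5dpr replicate 2 as in any other library, 34 were called, all lower at 14dpr. Gm29668 was at 142, 0.626, 0.326 and 0.434 CPM at 5dpr and 0.244, 0.101, 0 and 0 CPM at 14dpr, which gave the largest decrease of all genes. It had at most 3 reads in each 14dpr library, so that these were at least 109-fold under the 5dpr mean (edgeR adjusted p = 0.000872). That mean was carried by replicate 2 alone, so the bound does not hold for the other 5dpr libraries. Without 5dpr replicate 2 its adjusted p was 0.466. Gm4468, whose locus overlaps Lima1, was at 109, 0.25, 0.326 and 0.347 CPM at 5dpr and 0.122, 0.304, 0.651 and 0.212 CPM at 14dpr, a log2 fold change of -6.32 ± 1.53 (SE, adjusted p = 0.0142), and without the library its log2 fold change was 0.053 with an adjusted p of 1. Hnrnpd, an RNA-binding protein that is not one of the 50, was at 122, 36.8, 37.8 and 42.8 CPM at 5dpr and 24.5, 25.7, 26.5 and 24.9 CPM at 14dpr, a log2 fold change of -1.23 ± 0.23 (SE, adjusted p = 0.00124). It was also highest in that library, and without it the log2 fold change was -0.63 with an adjusted p of 0.0191. Of 1935 pseudogenes tested 1 was higher and 19 were lower, against 348 and 265 of 15582 protein-coding genes.

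The change in immature mice was set beside that in mature mice (4 libraries at 14dpr and 3 at 5dpr, since mature 5dpr replicate 2 was not analysed here). In mature mice 886 genes changed (4.18% of the genes tested), 414 higher (1.95%) and 472 lower (2.23%). The ages shared 330 called genes, which are 49% of the immature and 37.2% of the mature calls, and all 330 changed in the same direction. Of the 674 immature calls 639 (94.8%) had the same sign in mature mice, against 66.4% of all genes. The test of the difference between the 2 changes called 0 genes (0% of the genes tested) by edgeR, with a smallest adjusted p of 0.422, and 901 genes (4.25%) had an unadjusted p under 0.05. DESeq2 called 5 genes and the table of all genes with at least 1 count called 2. All of these but Cdh15 had log2 differences too large to be read as fold changes. The median standard error of the difference over the 674 genes was 0.40 on the log2 scale.

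Muscle regeneration genes fell at both ages, with 13 of 14 lower in mature mice and a median of -2.90 there. Myog had a log2 fold change of -2.92 (adjusted p = 6.89e-08) in mature mice, Myh3 -3.94 (adjusted p = 6.39e-07) and Chrna1 -3.15 (adjusted p = 5.69e-08). Cdh15 had the values -0.71 in immature and -2.55 in mature mice. The difference was 1.84 (95% interval 1.05 to 2.62, edgeR adjusted p = 0.422), and DESeq2 gave 1.81 with an adjusted p of 0.0422. The osteocyte gene Dmp1 and the osteoclast gene Acp5 were also higher in mature mice, where Dmp1 had 3.06 (adjusted p = 0.00143) and Acp5 1.76 (adjusted p = 0.00252).

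Cartilage matrix and MHC class II had unlike counts at the ages, without a called difference. In mature mice 8 of the 19 cartilage matrix genes were higher, with a median of 2.53, against 3 in immature mice. Col2a1 and Acan had 5.36 (adjusted p = 0.0257) and 3.24 (adjusted p = 0.00833) in mature mice. The differences were -2.07 (95% interval -5.18 to 1.05) for Col2a1 and -2.74 (-4.56 to -0.92) for Acan, with adjusted p-values of 1 and 1. Of the 10 MHC class II genes 0 were called in mature mice, with a median of 0.49. H2-Ab1 had 0.53 (adjusted p = 0.339) there, and the difference was 0.70 (-0.07 to 1.48, adjusted p = 1).

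The genes that follow are 5 of the 10 with the smallest adjusted p for the difference and a mean of at least 5 CPM. The test of the difference called none of them. The rest of the 10 were Cdh15, Mstn, Gm29668, Gm4468 and Hnrnpd. The last 3 of these stood far apart in immature 5dpr replicate 2. Kera, a proteoglycan of tendon and cornea, had 1.07 in immature and 3.41 in mature mice, a difference of -2.34 (adjusted p = 0.528). Tspan2, a tetraspanin, had -0.48 and 0.90 (difference -1.38, adjusted p = 0.528), and Fat4, a protocadherin, had 0.28 and 1.29 (difference -1.01, adjusted p = 0.895). Dapk2, a death-associated kinase, was called in immature mice alone, with 0.90 against -0.20 (difference 1.10, adjusted p = 0.528). Htra1, a secreted protease, had 0.50 and 1.24 (difference -0.74, adjusted p = 0.895).

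**Figure D5:**
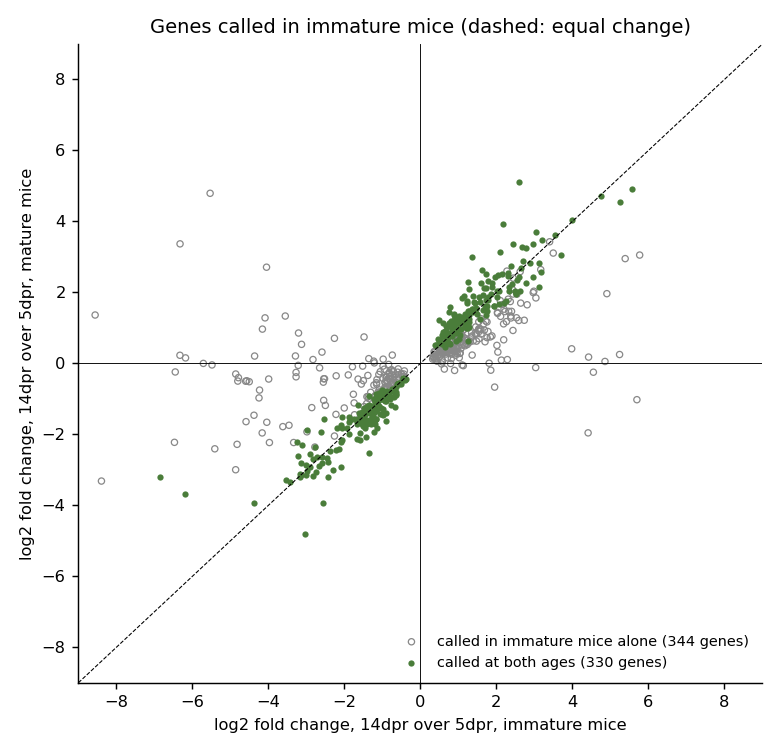
Log2 fold change between 14 and 5dpr in mature mice (y axis) against that in immature mice (x axis) for the 674 genes called in immature mice. The dashed line marks equal change, green points are the 330 genes called at both ages, and open points the 344 called in immature mice alone. The green points have the same sign at both ages and lie on both sides of the dashed line.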

How the data were processed

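Bulk RNA sequencing was performed by the authors on composite rib tissue, ground frozen, with a stranded TruSeq kit and paired-end reads of 150 bp on separate sequencing runs. Which library was in which run is not given in the sources used here. The labels name STAR 2.5.2a and GRCm38, and the authors deposited whole-number counts per gene, without normalization, for all 48733 genes and for 21204 filtered genes. The filter rule, and the strand setting of the counts, are not given in the sources used here. A second table deposited by the authors holds a normalized signal, which was CPM by edgeR with TMM factors (largest relative difference 5e-15) and served for this check.

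Counts of the filtered table were fitted in R 4.3.3 with edgeR 4.0.16 (glmQLFit, glmQLFTest) over all 39 libraries with a column, 1 coefficient a group, TMM factors, Benjamini-Hochberg adjustment over 21204 genes and a threshold of 0.05. Libraries outside the comparison enter the spread of this fit. Among them, immature 0dpr replicate 1 had 0.326% of its reads outside the filtered table. Mature 2dpr replicate 3 had 14380 genes detected and a mean correlation of 0.8927 with its group. The part of these libraries in the adjusted p-values was not tested. The standard error is the log2 fold change divided by the root of the F statistic. Log2 CPM used a prior count of 2. Where no library of a day exceeded 3 reads, the fold is a bound, and bounds cover counting error only. Mature 5dpr replicate 2 was not analysed here. Replicates were checked for duplicates, and the smallest squared difference between libraries of a day was 9.44 times the counting variance. The fit was tested on simulated data.

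Named genes were (a) among called genes with a mean of at least 5 CPM and no overlap between the days, the 12 largest changes in each direction, (b) by the same criteria the 8 smallest adjusted p-values in each direction, (c) the first 5 genes of each of 36 lists and up to 3 further members with the smallest adjusted p, and (d) the 10 genes nearest to a difference between ages. Some genes reached by the rule are not reported here. Outside this rule and chosen after their values were seen are Cnmd, Snorc, Lrp5, Fzd1, Tnc, Igfn1, Megf10, Mzb1, Igkc, Ighd, Ccl3 and Ccl12. The comparison and the lists were chosen with earlier results of these data known. Sets were not tested, and lists are described by counts and medians. Alternatives were RLE factors, DESeq2 1.42.0, other gene filters, fewer libraries in the fit, a replicate block, muscle or erythroid levels as covariates, a fold threshold, and each library left out. Positions are from GRCm38 (GENCODE), and promoter sequences from RefSeq (GRCm38.p6).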

Additional observations from a re-analysis of the deposited data

Results flagged for a closer look

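Single libraries that lay far from the other 3 of their day were looked for in 366 sets of 4 libraries, over the named genes, the gene lists and the library measures, and 18 were found. Chance alone gives about 1 in 20 such sets. Of the 18, 7 were immature 5dpr replicate 2 and 4 were immature 5dpr replicate 5.

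In 5dpr replicate 2 the share of reads outside the filtered table was 0.29% (0.046% to 0.051% in the other 3), Gm29668 was at 142 CPM (at most 0.626), Gm4468 at 109 CPM (at most 0.347), the RNA-binding protein gene Hnrnpd at 122 CPM (36.8 to 42.8) and Mucl2 at 16 CPM (8.58 to 8.85). The same library was the lowest for the osteoclast lectin Siglec15, at 0.159 CPM (0.751 to 0.868), and the highest for the mean log2 CPM of the oxidative phosphorylation genes, at 7.67 (7.42 to 7.44).

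In 5dpr replicate 5 the B cell genes Cd79b and Ighd were high, at 8.77 CPM (3.4 to 4.12) and 1.91 CPM (0.159 to 0.376), Dapk2 was high at 16.4 CPM (14.6 to 14.9), and the embryonic troponin Tnnt2 was low at 46.9 CPM (101 to 111). In 5dpr replicate 4 the cartilage lectin Clec3a was high at 1.12 CPM (0.125 to 0.174), as was the mean log2 CPM of T cell genes at 1.29 (0.944 to 0.999).

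At 14dpr, replicate 1 was high for the cartilage gene Cnmd at 56.2 CPM (7.6 to 9.11), low for Fzd1 at 76 CPM (80.8 to 81.5), and had the fewest genes detected, 22381 (22869 to 22901). Replicate 2 was high for the mean log2 CPM of cell cycle genes at 5.38 (5.01 to 5.03), and replicate 3 for Slc7a11 at 143 CPM (99.7 to 105).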

How the results depend on the processing

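The 674 calls (366 higher, 308 lower) became 1029 (564 and 465) with DESeq2, 1875 (1012 and 863) with only the 8 libraries compared in the fit, and 438 (220 and 218) with an absolute log2 fold change above 1, while RLE factors (668), both other gene filters (687 and 669), the muscle covariate (502) and the erythroid covariate (800) stayed within 1.5 times. With the muscle covariate 413 of the 502 calls were among the 674, and with the erythroid covariate 661 of the 800 were. Leaving out 1 library gave 341 to 612 calls, 186 to 302 higher and 144 to 329 lower. The cause of these shifts was not tested. All 674 genes kept their sign in each setting, except without 5dpr replicate 2 (659) and with edgeR's filter (655). The count with edgeR's filter leaves out any of the 674 genes that this filter removed, which is not a change of sign. Scaling moved the median log2 fold change of all genes by less than 0.1. For the difference between ages, edgeR called 0 genes, and the 15 fits that left out 1 library called 0. DESeq2 called 5, with log2 differences of -14.7 (Slc27a5), 1.81 (Cdh15), -19.0 (Ces1c), -32.9 (Cyp4a10) and 16.7 (Serpina1d). The table of all genes with at least 1 count called 2, with -15.6 (Gm12912) and -18.3 (Gm9372). Apart from that of Cdh15, these values are too large to be read as fold changes. Of 117 called genes named in the text, 75 kept their call in all 8 fits that left out a library and 30 lost it without 5dpr replicate 2, where Gm4468 changed sign, to a log2 fold change of 0.053 (lowest without 14dpr replicate 3, -6.88). A replicate block gave 525 calls (241 higher, 284 lower, 464 shared with the 674), but the numbers do not pair the libraries, since the deviations of replicates 2, 3 and 4 from their day means correlated at 0.0273, -0.0206 and 0.00742 between the days. Genes named as not called also depended on the setting. Of 17 alternative settings, Pax7 and Ighm were called in 5 each. Col2a1, Sp7, Sost, Gli1, Calcr and Ciita were called in 2 each. Ihh, Cnmd, Snorc, Bglap, Ccl2, Isg15 and Kera were called in 1 each. Acan, Sox9, Col1a1, Runx2, Postn, Acta1, Cdh15, S100a8, Tspan2 and Fat4 were called in 0. Low counts limit genes such as Ihh, Igll1 and Mmp10, since 1 read was 0.0466 to 0.159 CPM.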

Other observations

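Of 176 immunoglobulin and T cell receptor gene segments tested, 8 were higher at 14dpr and 0 lower, against 1.73% higher of all genes tested. All 8 were immunoglobulin segments, and no T cell receptor segment was called. Igkc, the kappa constant region, was at 6.66, 16.4, 4.2 and 11 CPM at 5dpr and 23.5, 55, 45.1 and 47.6 CPM at 14dpr, a log2 fold change of 2.19 ± 0.60 (SE, adjusted p = 0.0324). Ighd, the delta heavy chain of naive B cells, was at 0.159, 0.376, 0.326 and 1.91 CPM at 5dpr and 3.78, 5.07, 3.69 and 5.63 CPM at 14dpr, a log2 fold change of 2.64 ± 0.61 (SE, adjusted p = 0.00849). Igkc was lost in 6 of the 8 fits that left out a library, all but those without 14dpr replicate 1 and 5dpr replicate 3, and Ighd without 5dpr replicate 4 (adjusted p = 0.0563). Segments share sequence, and the counting may have split reads between them.

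The spliceosomal small nuclear RNA gene Rnu1b1 (chromosome 3 of GRCm38, 96359953 to 96360117) was at 13, 14, 11.9 and 8.07 CPM at 5dpr and 1.46, 1.72, 1.3 and 1.17 CPM at 14dpr, a log2 fold change of -3.04 ± 0.75 (SE, adjusted p = 0.0158), and the change in mature mice was -4.82 (adjusted p = 0.000595). U1 genes have near-identical copies, so its reads are uncertain, and the call was lost without 14dpr replicate 3 (adjusted p = 0.0527) or 14dpr replicate 4 (adjusted p = 0.0657).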
